A study of Homo sapiens with 6 samples.

Results

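The genes of 7 AP-1 transcription factors, JUN, JUNB, JUND, FOS, FOSL1, FOSL2 and ATF3, were followed through chromatin contact maps of the rhabdoid tumour cell line G401. A loop was counted for a gene when either of its anchors overlapped the gene, in hg19 coordinates, with 5 kb added on each side. The deposited loop lists were merged into 30001 consensus anchors, and 11 of these overlapped the 7 gene windows: 3 at ATF3, 2 each at FOSL1 and FOSL2, and 1 each at JUN, JUNB, JUND and FOS. The measured quantity was the number of paired-end tags (PETs), that is, sequenced pairs joining the 2 anchors of a loop. PETs of a gene are given per 1000000 PETs of the library, written CPM.

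G401 is an established human line from a rhabdoid tumour. It lacks SMARCB1, which belongs to the core of SWI/SNF, a complex that moves nucleosomes. The derivative used here carries an inducible SMARCB1, is kept in Tet-free serum, and received doxycycline at 1 μg/ml to switch SMARCB1 on. HiChIP, which pulls down ligated chromatin contacts with an antibody, was run on 3 groups of 2 libraries: ARID1A, a SWI/SNF subunit, at day 3 (labelled SMARCB1 +/+); H3K27ac, a histone mark of active promoters and enhancers, at day 3 (SMARCB1 +/+); and H3K27ac at day 0 (SMARCB1 -/-). No group received doxycycline without the SMARCB1 transgene, so the drug, SMARCB1 itself and the days elapsed cannot be told apart. ARID1A was profiled at day 3 only. The labels do not say whether replicates came from separate cultures or whether the inducible line is a clone, so each p-value rests on library-to-library spread that could be purely technical.

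AP-1 is a dimer of basic leucine zipper proteins. Jun proteins pair with each other or with Fos proteins, Fos proteins need a Jun partner to bind DNA, and ATF3 pairs with Jun proteins and with other members of the ATF and CREB family. The dimers bind the TPA response element or the related cyclic AMP response element, and in many cell types AP-1 occupies distal enhancers together with SWI/SNF. Several of these genes are immediate early genes, whose transcription responds within minutes to growth factors or stress.

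The loop files held 157578 and 164053 loops with 435210 and 467487 PETs for ARID1A at day 3, 162010 and 162167 loops with 929128 and 982141 PETs for H3K27ac at day 3, and 46677 and 44104 loops with 301703 and 253502 PETs for H3K27ac at day 0. The 2 libraries of a group listed nearly the same anchors, with 96.7% of those in either library shared in ARID1A, 99.4% in H3K27ac at day 3 and 98.0% in H3K27ac at day 0. How anchors were called is not stated, so a gene without a listed anchor in a group was treated as not measured there, and no fold is given for it. Over anchors with 10 or more PETs, the chi-square per degree of freedom between replicates was 1.01 in the ARID1A pair (p = 0.0982), 1.04 in the day 3 H3K27ac pair (p = 0.000574) and 1.13 in the day 0 H3K27ac pair (p = 5.15e-14), so both H3K27ac pairs differed beyond counting noise. The ARID1A pair differed in its listed loops and total and was kept as 2 libraries. The lists hold no RNA or protein level, so neither SMARCB1 re-expression nor the identity of the cells was checked here. As the libraries come from bulk cells, fewer cells with a contact and a weaker contact per cell cannot be told apart.

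Which of the 7 genes carried an anchor differed between the groups. JUNB, JUND, FOSL1 and FOSL2 had an anchor in the window in all 3 groups. JUN and ATF3 had one in ARID1A at day 3 and in H3K27ac at day 3 and none in H3K27ac at day 0, whereas FOS had one in ARID1A at day 3 and in H3K27ac at day 0 and none in H3K27ac at day 3. The map of listed anchors shows that widths also differed: at JUNB the anchor measured 25729 bp in ARID1A and 26297 bp in H3K27ac at day 3, against 7456 bp in H3K27ac at day 0.

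**Figure D1:**
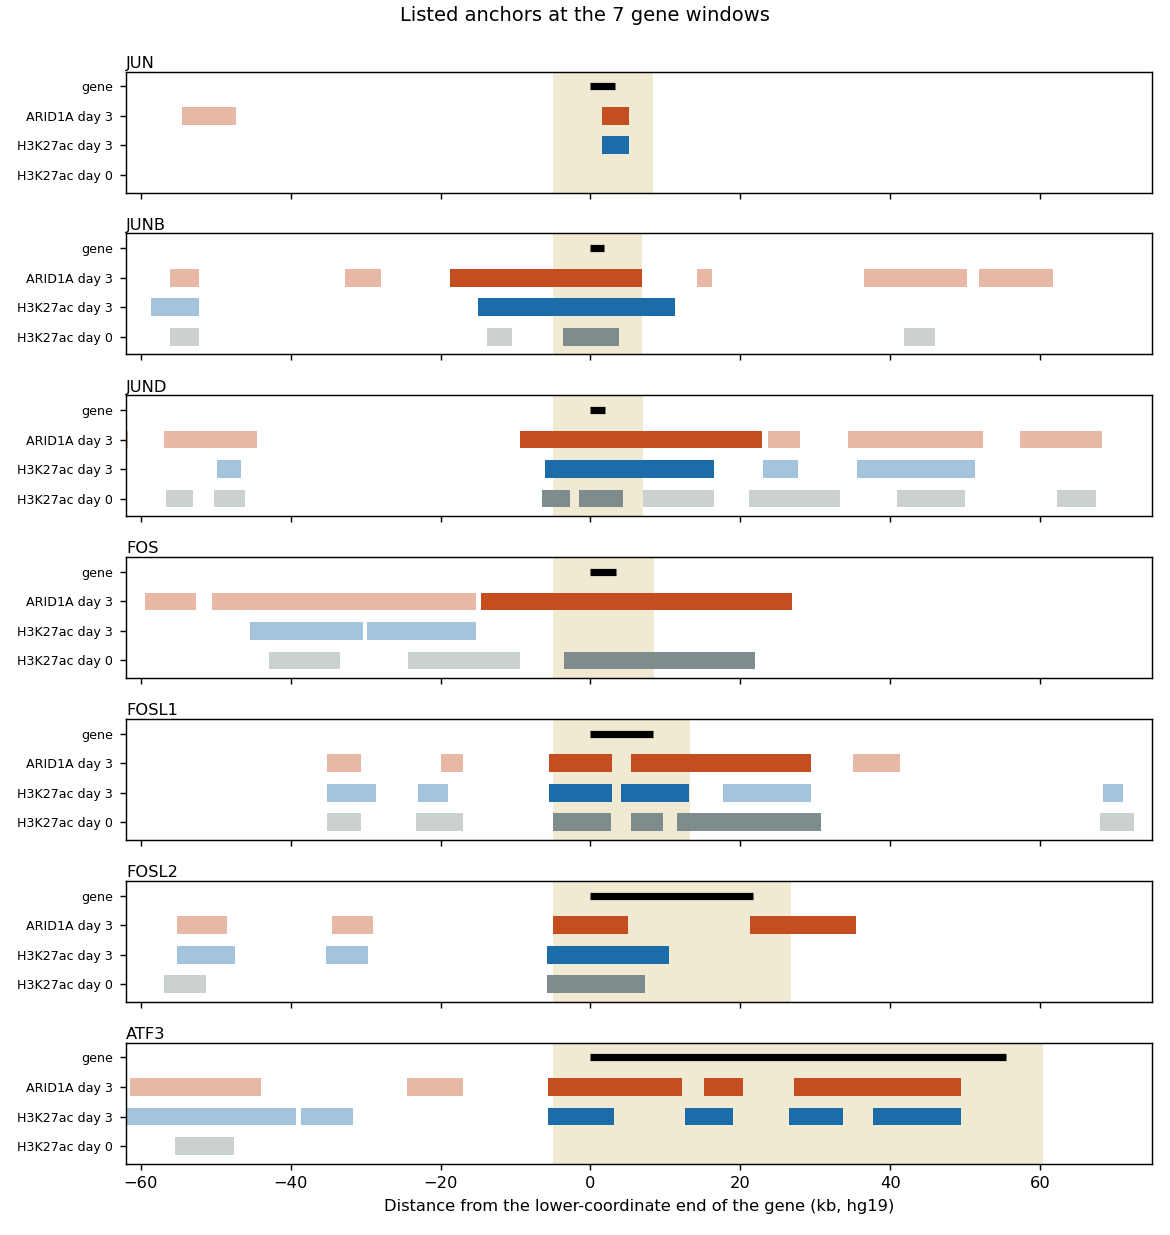
Listed anchors at each gene, by distance in kb from the end of the gene with the lower coordinate (x axis). Rows are the gene (black), ARID1A at day 3, H3K27ac at day 3 and H3K27ac at day 0; the shaded band is the gene with 5 kb added each side, and anchors outside it are pale. No H3K27ac day 0 anchor falls in the JUN or ATF3 band, and no H3K27ac day 3 anchor falls in the FOS band.

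Promoter sequences from RefSeq (GRCh38.p14, a different build from that of the loop files) were found for 6 of the 7 genes, as 7 promoters of 300 bases that run from 250 bases before the start to 50 after it. They were searched on both strands for the TPA response element (TGAGTCA or TGACTCA), the cyclic AMP response element (TGACGTCA), the TATA box (TATAAA) and a serum response element. A variant, TGACATCA, was added after the sequences were seen. No matches of different elements overlapped, and a match is a description of the sequence only. The promoters of JUN, JUND, FOSL2 and FOS are shown because each start lies in an anchor described here and because each carries a different searched element, in capitals. They lie at chr1:58783998-58784297 on the minus strand (JUN), chr19:18281573-18281872 on the minus strand (JUND), chr2:28392608-28392907 on the plus strand (FOSL2) and chr14:75278578-75278877 on the plus strand (FOS).
JUN: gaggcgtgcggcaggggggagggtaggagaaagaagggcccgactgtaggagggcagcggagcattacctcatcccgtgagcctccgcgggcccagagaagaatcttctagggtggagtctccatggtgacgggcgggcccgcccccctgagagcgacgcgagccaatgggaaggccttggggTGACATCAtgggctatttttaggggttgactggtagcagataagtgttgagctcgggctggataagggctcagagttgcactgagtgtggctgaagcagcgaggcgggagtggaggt
JUND: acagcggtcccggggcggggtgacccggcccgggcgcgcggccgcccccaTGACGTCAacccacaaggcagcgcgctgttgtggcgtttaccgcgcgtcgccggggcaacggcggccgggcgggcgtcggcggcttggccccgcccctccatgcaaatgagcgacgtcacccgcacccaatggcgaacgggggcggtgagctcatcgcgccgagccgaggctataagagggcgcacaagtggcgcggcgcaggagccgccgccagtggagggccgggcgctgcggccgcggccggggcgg
FOSL2: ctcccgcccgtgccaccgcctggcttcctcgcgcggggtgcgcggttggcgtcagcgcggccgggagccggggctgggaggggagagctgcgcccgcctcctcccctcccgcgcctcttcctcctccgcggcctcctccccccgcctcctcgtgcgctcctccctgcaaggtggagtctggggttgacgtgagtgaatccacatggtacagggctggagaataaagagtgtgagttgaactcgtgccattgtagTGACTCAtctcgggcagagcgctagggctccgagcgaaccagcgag
FOS: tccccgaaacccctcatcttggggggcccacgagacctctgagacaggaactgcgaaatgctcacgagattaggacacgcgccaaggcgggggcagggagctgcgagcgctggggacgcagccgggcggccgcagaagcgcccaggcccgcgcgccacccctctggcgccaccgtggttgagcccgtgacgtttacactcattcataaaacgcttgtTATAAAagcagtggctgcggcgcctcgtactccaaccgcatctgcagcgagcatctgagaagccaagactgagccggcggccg

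The variant TGACATCA lay 67 bases upstream of the JUN start and 123 bases upstream of one of the ATF3 starts, and 2.61% of all 35116 promoters of this length hold it. The cyclic AMP response element lay 200 bases upstream of the JUND start (1.85% of all promoters), and the TPA response element lay in the FOSL2 promoter (4.95% of all promoters). TATAAA lay 33 bases upstream of the FOS start, 31 bases upstream of the JUNB start and 230 bases upstream of the other ATF3 start (11.5% of all promoters). The serum response element letters were in none of the 7 promoters and in 0.0342% of all. Bases farther than 250 upstream of a start were not searched, so this does not show that a gene lacks the element.

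Among the Jun genes, JUN (chr1:59246463-59249785), the founding member and a strong activator, was barely contacted. It had 1 and 0 PETs in the ARID1A libraries and 2 and 4 PETs in the H3K27ac day 3 libraries, and no anchor was listed within 250 kb of its window in H3K27ac at day 0. The counts overlap between the first 2 groups and are too low for a fold. Its anchor, chr1:59247983-59251630, was 3647 bp wide in both groups and covered the start of the gene, but held more PETs than only 1.60% of the H3K27ac day 3 anchors. The nearest other merged anchor with an H3K27ac day 3 call, chr1:59164009-59169359, lay 72.1 kb from the window. It received 1 and 3 of the JUN PETs in H3K27ac at day 3.

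JUNB (chr19:12902310-12904125), a Jun protein that activates more weakly and can restrain JUN, had 190.7 and 175.4 CPM in ARID1A, 714.6 and 703.6 in H3K27ac at day 3, and 364.6 and 311.6 in H3K27ac at day 0. The 3 groups do not overlap: H3K27ac at day 3 was highest and ARID1A lowest. Divided by the listed anchor width, the order changed, to 7.11 ± 0.42 CPM per kb in ARID1A, 26.97 ± 0.30 in H3K27ac at day 3 and 45.3 ± 5.02 in H3K27ac at day 0 (SD, n = 2 each). The summed level was thus higher, and the level per kb lower, at day 3 than at day 0.

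JUND (chr19:18390504-18392466), the Jun protein expressed most evenly across tissues, had 438.9 and 415.0 CPM in ARID1A, 716.8 and 771.8 in H3K27ac at day 3, and 1011 and 1026 in H3K27ac at day 0. The groups do not overlap, with H3K27ac at day 0 highest. Other pieces of the same merged anchor, chr19:18381121-18423806, received 7.53% of the PETs of the window in ARID1A, 9.34% in H3K27ac at day 3 and 33.6% in H3K27ac at day 0. Its merged anchor held more PETs than 98.4% of the anchors of its group in ARID1A, 98.3% in H3K27ac at day 3 and 98.3% in H3K27ac at day 0.

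Among the Fos genes, FOS (chr14:75745481-75748937), the prototype immediate early gene, had 664.0 and 648.1 CPM in ARID1A and 1051 and 974.4 in H3K27ac at day 0, with no anchor in the window in H3K27ac at day 3. The listed day 3 H3K27ac anchors nearest to FOS ran from 45.5 kb to 15.3 kb upstream of its start and stopped short of the window. The ARID1A anchor covered the start, from 14.6 kb upstream to 26.9 kb downstream, and the day 0 H3K27ac anchor covered a narrower stretch, from 3.51 kb upstream to 21.9 kb downstream. Merged with its upstream pieces, the FOS anchor of ARID1A held more PETs than 99.8% and was wider than 99.9% of all ARID1A anchors. Other pieces of the same merged anchor received 30.9% of the PETs of the window in ARID1A and 52.0% in H3K27ac at day 0.

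FOSL1 (chr11:65659691-65667997), which encodes FRA-1, a Fos protein without the C-terminal activation domain of FOS, had 211.4 and 218.2 CPM in ARID1A, 919.1 and 911.3 in H3K27ac at day 3, and 2005 and 2213 in H3K27ac at day 0. It had the highest summed level of the 7 genes in both H3K27ac groups, and the groups do not overlap. PETs joining 2 anchors inside its window numbered 21 and 18 in ARID1A, 125 and 154 in H3K27ac at day 3, and 203 and 176 at day 0. At day 3 a further 20.4% of the H3K27ac PETs led to a piece of its own merged anchor outside the window. The day 0 window took in an anchor of 19180 bp that ran past it, whose day 3 counterpart lay outside. FOSL2 (chr2:28615779-28637516), which encodes FRA-2, had 174.6 and 237.4 CPM in ARID1A, 344.4 and 342.1 in H3K27ac at day 3, and 334.8 and 394.5 in H3K27ac at day 0. The ARID1A libraries lay below the rest, and the H3K27ac libraries of the 2 days overlapped.

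ATF3 (chr1:212738676-212794119), a stress-induced factor of the ATF and CREB family, had 475.6 and 382.9 CPM in ARID1A and 349.8 and 350.3 in H3K27ac at day 3. Both ARID1A libraries lay above the H3K27ac libraries, although per kb of anchor they overlapped. In H3K27ac at day 0 the nearest listed anchor lay at -55.4 to -47.5 kb from the lower-coordinate end of the gene. It was outside the window and held 6 and 2 PETs. Its 3 listed ARID1A anchors and 4 listed day 3 H3K27ac anchors were spread along the gene, and 1 in each group covered the upstream start.

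Per kb of listed anchor, the genes ranked differently in the groups. In ARID1A the order was FOS (15.8 ± 0.27 CPM per kb), JUND (13.2 ± 0.52), ATF3 (9.48 ± 1.45), FOSL2 (8.49 ± 1.83), JUNB (7.11 ± 0.42), FOSL1 (6.62 ± 0.15) and JUN (0.32 ± 0.45), each as SD with n = 2. The libraries of ATF3 and FOSL2 overlapped in ARID1A, as did those of FOSL2 and JUNB. In H3K27ac at day 3 the order was FOSL1 (52.6 ± 0.32), JUND (32.8 ± 1.71), JUNB (26.97 ± 0.30), FOSL2 (21.1 ± 0.10), ATF3 (10.3 ± 0.01) and JUN (0.85 ± 0.37), with no overlap between neighbours. In H3K27ac at day 0 it was JUND (106.8 ± 1.09), FOSL1 (67.6 ± 4.70), JUNB (45.3 ± 5.02), FOS (39.9 ± 2.12) and FOSL2 (27.9 ± 3.23), where JUNB and FOS differed by about the spread of their libraries. FOSL1 thus stood among the top 2 genes for H3K27ac on both days and next to last for ARID1A.

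**Figure D2:**
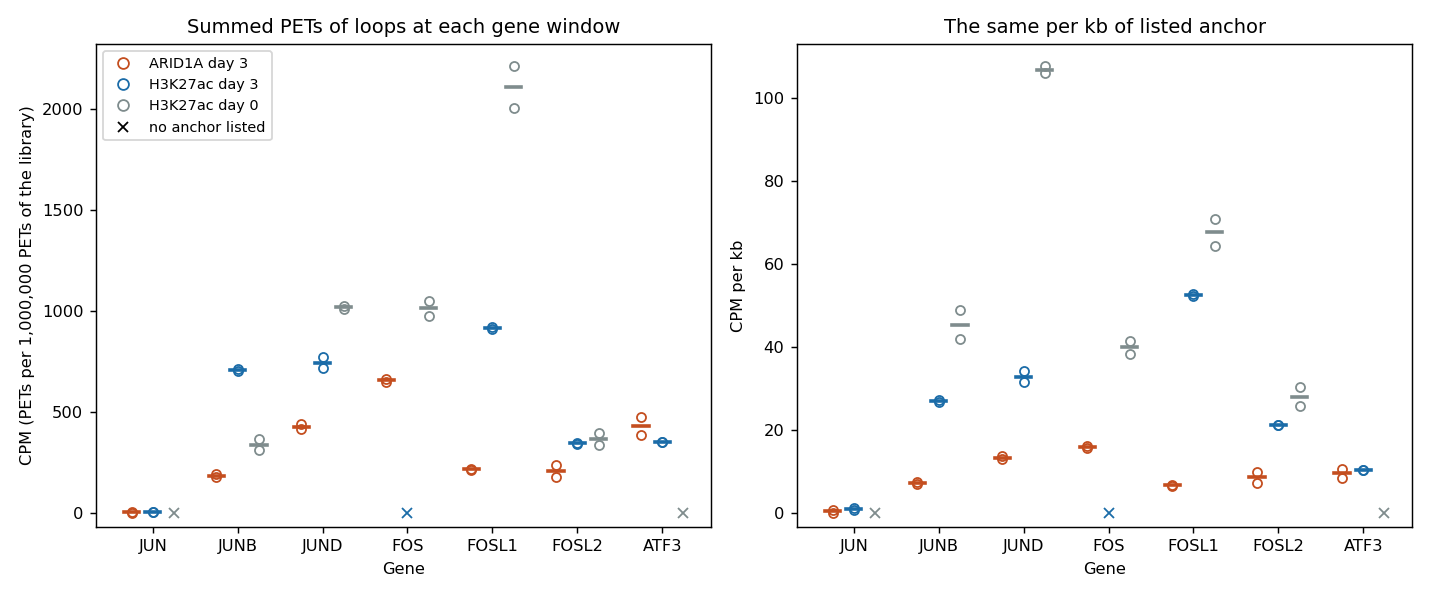
Summed CPM (left) and CPM per kb of listed anchor (right) for the 7 genes; circles are libraries, bars are means of 2, and crosses mark groups with no listed anchor. FOSL1 averages 214.8 CPM in ARID1A, 915.2 in H3K27ac at day 3 and 2109 in H3K27ac at day 0, and JUNB changes its order between the panels.

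Setting H3K27ac at day 3 against day 0 asks how contacts of H3K27ac-marked chromatin at these genes differed after SMARCB1 was switched on. On merged anchors, contacts at FOSL1 were lower and contacts at JUNB were higher at day 3. JUND turned with the feature that was counted, and FOSL2 did not pass the test. Contacts of the merged FOS anchor were lower too. No day 3 H3K27ac anchor reached the FOS window, so the gene itself was not compared. The quasi-likelihood test of edgeR over all anchors called on both days, with Benjamini-Hochberg adjustment, measured 6 of the 11 anchors and called 1 higher and 4 lower; loops inside 1 merged anchor were left out. Of all 6251 anchors tested, 39.5% were called, 20.7% higher and 18.8% lower. The median log2 fold was -0.49 for the 6 anchors and -0.01 for all anchors. The other 5 anchors had no listed anchor on one or both days.

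The JUNB anchor, chr19:12883499-12913568, had 440 and 454 PETs at day 3 and 92 and 81 PETs at day 0. Scaled by library these counts do not overlap, and the fit gave a log2 fold of 1.09 ± 0.12 (SE; edgeR adjusted p = 1.23e-15). Its called width was 2.41 times larger at day 3, and when only loops whose own listed anchor overlapped the gene window were counted, the log2 fold was 1.81 ± 0.14 (edgeR adjusted p = 3.16e-31). Whether the wider anchor accounts for the higher count was not tested.

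The JUND anchor, chr19:18381121-18423806, had 638 and 722 PETs at day 3 and 442 and 432 PETs at day 0, with a log2 fold of -0.64 ± 0.07 (edgeR adjusted p = 2.11e-14). Counted through the gene window, in place of the merged anchor, the same gene had 542 and 620 PETs at day 3 and 160 and 141 PETs at day 0, and the log2 fold was 0.67 ± 0.10 (edgeR adjusted p = 8.84e-10), or 0.16 ± 0.10 (adjusted p = 0.153) when scaled by library totals. No direction is therefore given for JUND between the days. The pieces that overlap the window were 22.7 kb wide at day 3 and 9.54 kb at day 0.

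The FOS anchor, chr14:75695023-75772369, had 261 and 277 PETs at day 3 and 250 and 207 PETs at day 0. The log2 fold was -1.04 ± 0.10 (edgeR adjusted p = 9.84e-19), and only 3.41% of the anchors tested had a lower fold. This compares different stretches of the locus: the day 3 pieces lay wholly upstream of the gene and measured 29575 bp, against 49960 bp of pieces at day 0 that included the start.

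The 2 FOSL1 anchors had called widths within 1.13 times of each other on the 2 days. The anchor chr11:65654166-65662508 had 413 and 443 PETs at day 3 and 260 and 227 PETs at day 0, with a log2 fold of -0.47 ± 0.09 (edgeR adjusted p = 7.18e-06). The anchor chr11:65663720-65690440 had 590 and 608 PETs at day 3 and 368 and 338 PETs at day 0, with a log2 fold of -0.52 ± 0.08 (edgeR adjusted p = 5.81e-09). Scaled by library, the day 3 libraries lay below the day 0 libraries at each anchor. Counted through the window, where the listed anchors measured 17.4 kb at day 3 and 31.2 kb at day 0, the log2 fold was -0.87 ± 0.07 (edgeR adjusted p = 3.21e-26), and with only anchors of similar width in the table the first anchor missed the threshold, at -0.21 (adjusted p = 0.0939).

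The FOSL2 anchor, chr2:28609996-28626250, had 261 and 278 PETs at day 3 and 101 and 99 PETs at day 0, and its log2 fold of 0.15 ± 0.13 was not called (edgeR adjusted p = 0.364). Scaled by library totals it was -0.35 (adjusted p = 0.0169), and with only anchors of similar width 0.40 (adjusted p = 0.0148), so its direction was not settled. On the gene sums in CPM, the log2 ratios of day 3 over day 0 were 1.07 for JUNB, -0.45 for JUND, -1.20 for FOSL1 and -0.09 for FOSL2; an exact two-sided permutation test of 2 against 2 libraries cannot go below p = 0.333, which JUNB, JUND and FOSL1 reached. These ratios moved with the counting: JUNB was at 0.48 with a 20 kb flank and at 4.44 with deposited values of 0.01 or less, and FOSL1 was at -0.68 with no flank. JUND was at -1.64 with a 20 kb flank and above 0 in other settings. Scaled by PETs between anchors called on both days, FOSL2 was at 0.42.

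Setting ARID1A against H3K27ac, both at day 3, puts 2 antibodies side by side in cells of the same label, so it gives relative enrichment of contacts and not a change. Relative to H3K27ac, ARID1A contacts on merged anchors were higher at the FOS locus and lower at JUNB, JUND, FOSL1 and FOSL2. They were also called higher at ATF3, where the calls were lost at equal depth and, for the gene window, with library totals. All 9 anchors with enough PETs were called by edgeR, 4 higher and 5 lower, where 64.0% of all 11052 anchors tested were called, 31.5% higher and 32.5% lower. The median log2 fold was -0.66 for the 9 anchors and -0.05 for all. Loops that join 2 anchors of the same gene, at FOSL1 and ATF3, count at both. The JUN anchor fell under the minimum count, and an anchor at the downstream end of FOSL2, chr2:28637043-28651233 with 43 and 63 PETs, was listed in ARID1A only. On the gene sums, the log2 ratios of ARID1A over H3K27ac were -1.95 for JUNB, -0.80 for JUND, -2.09 for FOSL1, -0.74 for FOSL2 and 0.29 for ATF3, each at the smallest permutation p of 0.333. Scaled by PETs between anchors called in both data sets, they were -1.30 for JUNB, -0.15 for JUND, -1.44 for FOSL1, -0.09 for FOSL2 and 0.95 for ATF3. With partners called in both only, FOSL2 was at -2.23 and JUND at -1.20, and at equal depth ATF3 was at 0.049.

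JUNB had the same anchor width in both data sets to within 1.02 times and showed 41 and 46 PETs in ARID1A and 565 and 591 PETs in H3K27ac, with a log2 fold of -2.03 ± 0.13 (edgeR adjusted p = 2.28e-50). Scaled by library the 2 data sets lie far apart. JUND had 144 and 145 PETs in ARID1A and 704 and 776 PETs in H3K27ac, with a log2 fold of -0.66 ± 0.09 (edgeR adjusted p = 3.96e-12), although its called width was 1.34 times larger in ARID1A. Through the gene windows the log2 folds were -2.03 for JUNB and -0.59 for JUND.

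At FOSL1 the anchor chr11:65654166-65662508 was 8342 bp wide in both data sets. It had 29 and 34 PETs in ARID1A and 427 and 475 PETs in H3K27ac, a log2 fold of -2.14 ± 0.15 (edgeR adjusted p = 2.73e-42), and 5.53% of the anchors tested had a lower fold. The other FOSL1 anchor had 56 and 56 PETs in ARID1A and 627 and 642 PETs in H3K27ac, with a log2 fold of -1.81 ± 0.12 (edgeR adjusted p = 2.73e-47). FOSL2 had 25 and 35 PETs in ARID1A and 287 and 306 PETs in H3K27ac, with a log2 fold of -1.61 ± 0.17 (edgeR adjusted p = 7.98e-20) and a called width 1.61 times larger in H3K27ac.

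The FOS anchor had 278 and 284 PETs in ARID1A and 294 and 311 PETs in H3K27ac at day 3, a log2 fold of 1.59 ± 0.09 (edgeR adjusted p = 1.6e-66) with a called width 2.59 times larger in ARID1A. The H3K27ac pieces did not reach the gene, so the fold is one of the merged locus and not of the FOS start. From the upstream end of ATF3, its 3 anchors had 76 and 61, 34 and 29, and 81 and 77 PETs in ARID1A, against 98 and 99, 48 and 32, and 165 and 194 PETs in H3K27ac. They had log2 folds of 1.17 ± 0.17, 1.35 ± 0.26 and 0.51 ± 0.14 (edgeR adjusted p = 3.97e-11, 5.16e-07 and 0.000943). The highest of these anchors was narrower in ARID1A, at 5184 bp against 6419 bp in H3K27ac. The calls depended on the scaling. With library totals the third of these anchors turned to -0.10 (adjusted p = 0.525). Through the ATF3 window the log2 fold was 0.76 ± 0.11 (edgeR adjusted p = 7.22e-11), scaled by library totals 0.14 ± 0.11 (adjusted p = 0.228), and when libraries were thinned to equal depth all 3 anchors missed the threshold, with adjusted p of 0.054, 0.243 and 0.123. The anchor chr1:212765236-212788091 also missed it without replicate 1 of H3K27ac at day 3, at a log2 fold of 0.23 (adjusted p = 0.229), and with all consensus anchors, at 0.25 (adjusted p = 0.0548).

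**Figure D3:**
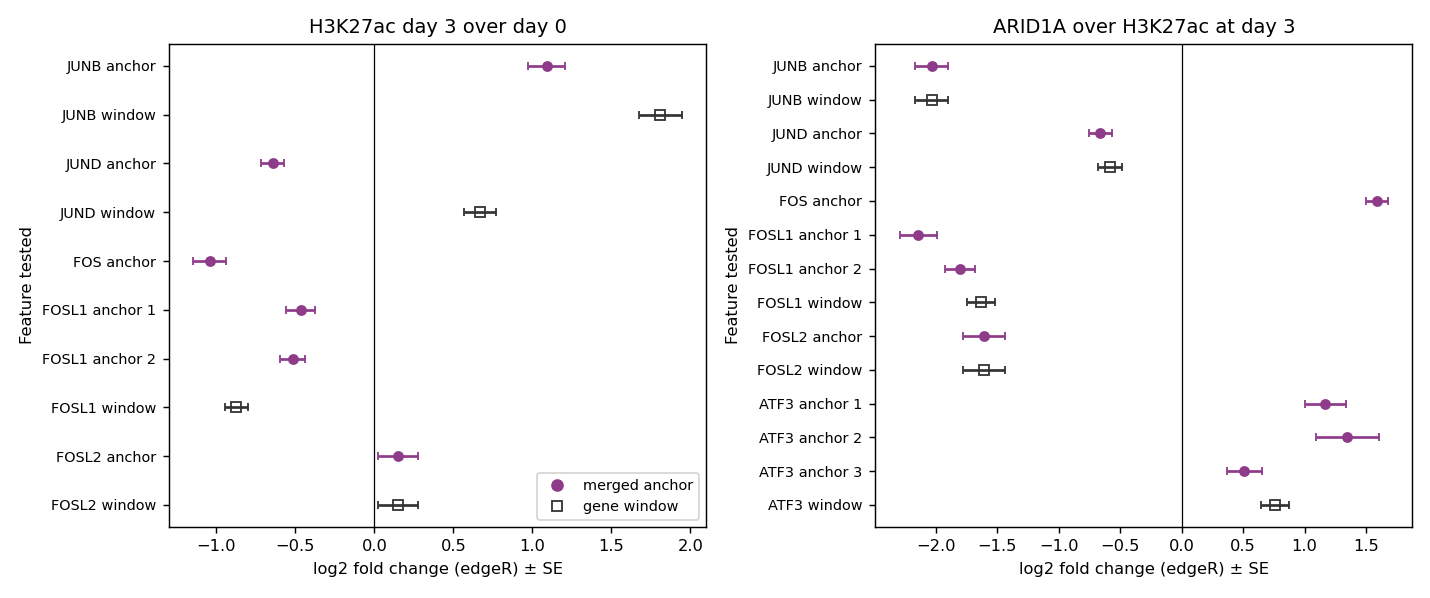
Log2 fold change with its standard error for the merged anchors (filled circles) and for the gene windows (open squares), H3K27ac day 3 over day 0 on the left and ARID1A over H3K27ac at day 3 on the right. JUND lies at -0.64 as a merged anchor and at 0.67 as a window on the left; JUNB, JUND, FOSL1 and FOSL2 lie below 0 on the right in both forms.

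Across all anchors the fold followed the ratio of called widths. Spearman's correlation between them was 0.68 over 6251 anchors for day 3 over day 0 and 0.67 over 11052 anchors for ARID1A over H3K27ac; anchors share libraries and loops, so these are descriptions. The part of width in the folds of the 7 genes was not tested.

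**Figure D4:**
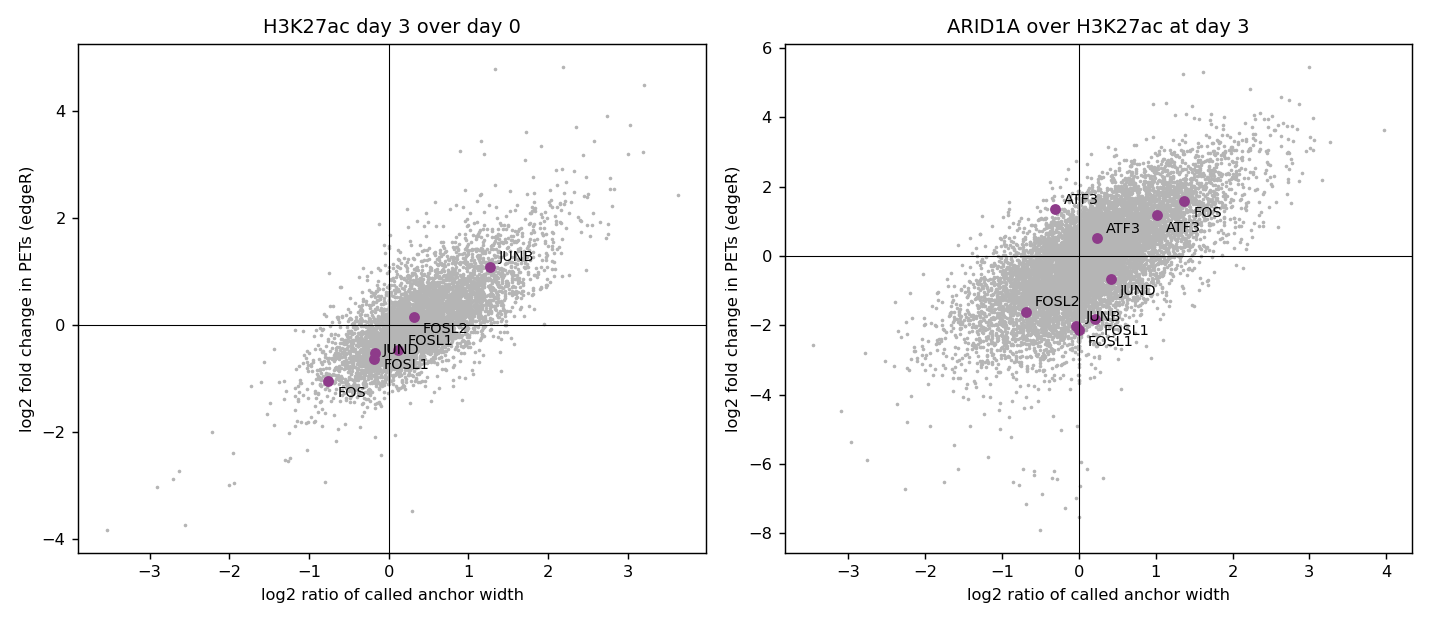
Log2 fold change in PETs against the log2 ratio of called anchor width, for all tested anchors (grey) and those of the 7 genes (purple, named). The left panel shows H3K27ac day 3 over day 0 and the right panel ARID1A over H3K27ac at day 3; on the right the FOSL1 anchor of equal width lies at -2.14.

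Single loops showed which contacts made up these totals. For H3K27ac day 3 over day 0, edgeR tested 81 loops of the genes and called 8 higher and 18 lower, where 15.1% of 16642 loops were called in all, 8.3% higher and 6.8% lower. The 8 higher loops were all at JUNB, out of 17 tested there; the lower ones were 8 of 9 at FOS, 6 of 15 at JUND and 4 of 30 at FOSL1. At FOSL2 none of 10 was called by edgeR, by DESeq2 or at an unadjusted p under 0.05. The FOS loops carry the same limit as its merged anchor, and the JUND loops mix pieces inside and outside the window. The loop calls were fragile: leaving out any 1 of the 4 libraries left 13 to 15 of the 26 calls in number, and equal depth or anchors of similar width left 0 (edgeR; 21 and 3 loops at an unadjusted p under 0.05).

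The strongest JUNB loop tested between the days joined it to chr19:12843641-12850044, 51.7 kb away, with 92 and 111 PETs at day 3 and 14 and 17 PETs at day 0 (log2 fold 1.39 ± 0.25, edgeR adjusted p = 1.55e-06). The largest JUNB loop of H3K27ac at day 3, with 123 and 141 PETs, led to chr19:12827215-12838759, where H3K27ac had no anchor at day 0 and ARID1A had 12 and 8 PETs. The FOSL1 loop with the smallest p led to chr11:65636373-65642631, with 24 and 31 PETs at day 3 and 31 and 34 PETs at day 0 from the first anchor (log2 fold -1.55 ± 0.27, edgeR adjusted p = 3.59e-07). The called width of that partner was 4005 bp at day 3 and 6258 bp at day 0. The FOSL2 loop to chr2:28489455-28524920 had 110 and 111 PETs at day 3 and 38 and 54 PETs at day 0, a log2 fold of -0.06 ± 0.18 that was not called (edgeR adjusted p = 0.877).

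For ARID1A over H3K27ac at day 3, 98 loops were tested and edgeR called 9 higher and 32 lower, where 33.3% of 28338 loops were called in all, 14.6% higher and 18.7% lower. The higher loops were 4 of 9 at ATF3 and 5 of 10 at FOS, and the lower ones were 10 of 18 at JUNB, 4 of 17 at JUND, 13 of 32 at FOSL1 and 5 of 12 at FOSL2. Leaving out any 1 library gave 15 to 21 calls in place of 41. The FOS loop to chr14:75589879-75630565 had 159 and 151 PETs in ARID1A and 114 and 134 PETs in H3K27ac (log2 fold 1.98 ± 0.14, edgeR adjusted p = 4.04e-43). From the gene window alone it had 112 and 82 PETs in ARID1A and 71 and 47 PETs in H3K27ac at day 0. The JUNB loop to chr19:12843641-12850044 had 1 and 6 PETs in ARID1A and 92 and 111 PETs in H3K27ac (log2 fold -3.18 ± 0.38, edgeR adjusted p = 3.59e-15).

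No loop joined any 2 of the 7 genes, and none could have done so. The longest listed loop reached about 2053 kb, and the genes lie farther apart or on different chromosomes. The windows reached between 1 and 50 partner anchors in ARID1A (JUN lowest, FOSL1 highest), between 3 and 84 in H3K27ac at day 3 among the genes with an anchor (JUN lowest, FOSL1 highest), and between 15 and 54 in H3K27ac at day 0 (FOSL2 lowest, FOSL1 highest). At JUNB, 26 partners were shared between the days, which is 26 of the 52 day 3 partners and 89.7% of the 29 day 0 partners. At FOSL1, 44 were shared, or 52.4% of 84 at day 3 and 81.5% of 54 at day 0. ARID1A shared 27 JUNB partners with H3K27ac at day 3, or 61.4% of its 44 and 51.9% of 52, and 32 FOSL1 partners, or 64.0% of its 50 and 38.1% of 84.

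The reach of the contacts also differed. The median span of the JUNB PETs was 62.7 kb in ARID1A, 146.4 kb in H3K27ac at day 3 and 54.2 kb in H3K27ac at day 0, and 42.4%, 63.5% and 41.8% of its PETs in these groups spanned over 100 kb. In H3K27ac at day 0, 30.7% of the JUNB PETs joined the window to another piece of its own merged anchor. The other groups listed 1 anchor over that stretch and had 0 such PETs. The part of this in the spans was not tested. For FOSL1 the span was 111.9 kb in ARID1A, 40.5 kb in H3K27ac at day 3 and 41.3 kb in H3K27ac at day 0, and for FOSL2 it was 215.3 kb, 114.0 kb and 120.5 kb in the same order. The FOSL1 spans include the PETs between pieces of its own locus given above, and their part was not tested. The ARID1A spans rest on few PETs, 165 for JUNB, 194 for FOSL1 and 187 for FOSL2, and the 2 ARID1A libraries gave 50.3 and 111.9 kb for FOSL1 and 202.4 and 301.5 kb for FOSL2. For ATF3, the region chr1:212674230-212699390 held 21.2% of its PETs in ARID1A and 31.7% in H3K27ac at day 3, and the region chr1:212646471-212666250 held 22.3% in ARID1A and 21.7% in H3K27ac at day 3. Both lie upstream of the gene.

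**Figure D5:**
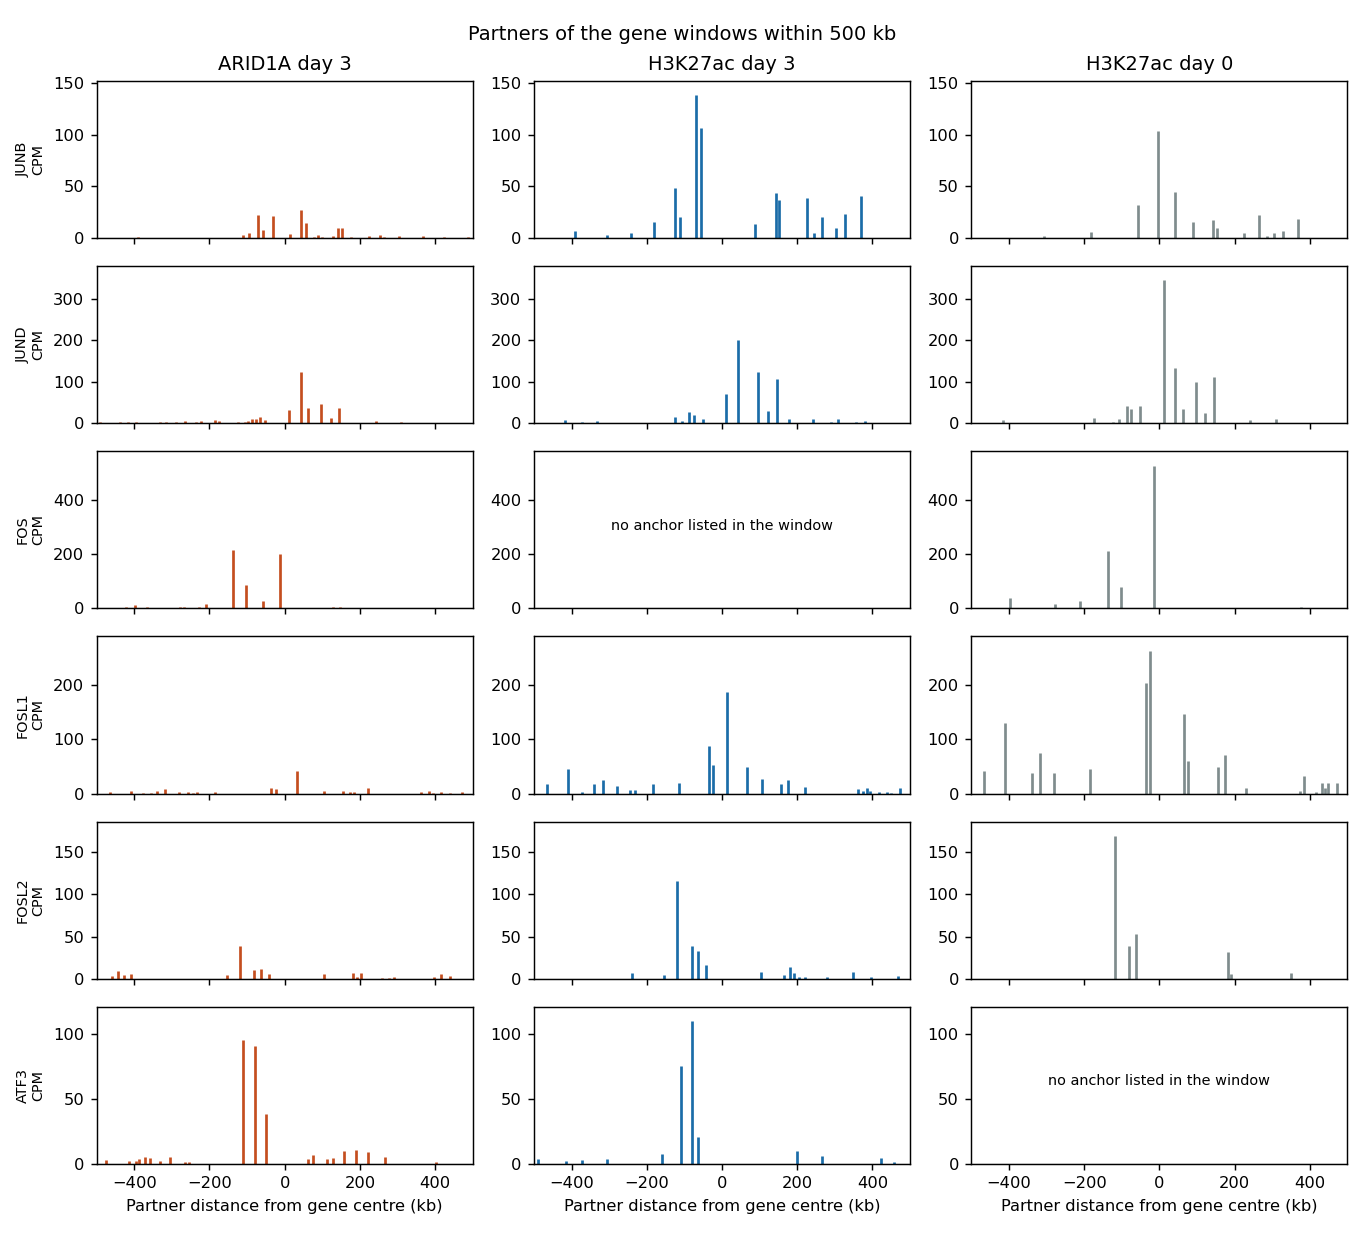
CPM (y axis, mean of 2 libraries) joining each gene window to partner regions within 500 kb, by distance from the gene centre in kb (x axis); columns are ARID1A at day 3, H3K27ac at day 3 and H3K27ac at day 0, and rows share a scale. JUN is left out for its low counts; 19.5% of the JUNB PETs in H3K27ac at day 3 fall at 1 region 70.2 kb away where H3K27ac has no anchor at day 0.

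Across the 6 libraries, the genes most alike in pattern were FOSL2 and JUND, at a distance of 0.61, then FOSL2 and JUNB (1.45) and JUNB and JUND (1.60). The measure is the Euclidean distance between log2(CPM + 1) profiles after each gene's mean was subtracted. A group with no listed anchor entered as 0, although it was treated as not measured elsewhere. This affects every pair with JUN, ATF3 or FOS, and the pairs named here hold none of these genes. The neighbours of the genes, taken from RefSeq gene order, include other basic leucine zipper genes: JDP2 and then BATF follow FOS, and BATF3 is the second gene after ATF3.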

How the data were processed

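HiChIP loops were listed for 6 libraries in 3 groups of 2, with grouping taken from the labels. The deposited files give a PET count for each loop between 2 anchors, and per the submitters' processing notes HiC-Pro, Bowtie2 and hg19 were used; how loops and anchors were called is not given in the sources used here. The last deposited column holds values from 0 to 1 that may be a p-value or a q-value, which the authors' files do not state, and it served only as a threshold of 0.01 in an alternative. Whether coordinates count from 0 or 1 is not stated, and they are printed as deposited.

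Anchors overlapping by 1 bp or more were merged into 30001 consensus anchors. PETs per gene were scaled to 1000000 PETs of the library. Anchors (10 or more PETs in at least 2 of 4 libraries) and loops (4 or more) called in both groups were tested with edgeR 4.0.16 (R 4.3.3; quasi-likelihood, TMM, Benjamini-Hochberg over the whole table, threshold 0.05). A loop counts at both its anchors. Other steps used Python 3.11.15, pandas 2.3.3, numpy 2.4.6, scipy 1.17.1 and matplotlib 3.10.9, and the fits were tested on simulated data. An exact permutation test of 2 against 2 libraries has 6 arrangements, and its smallest p is 0.333. PETs are not independent molecules, so errors cover counting and the spread of 2 libraries.

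All 7 genes are described, each with its anchor of most PETs. Of the tested loops, the 3 with the highest level per gene and the called loop of smallest p in each direction could be named. The ATF3 and FOSL1 anchors named beyond this, and loops given through the gene window, were chosen after their values were seen. The members and lists were chosen with earlier results of these data known. A list of other AP-1 pathway genes was not run, since no hg19 annotation was used here. Alternatives were other scaling, DESeq2 1.42.0, filters, flanks, equal depth, equal anchor width, the deposited value, left-out libraries and a replicate block.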

Additional observations from a re-analysis of the deposited data

How the results depend on the processing

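Counts of called AP-1 anchors and loops depended on which features were compared. For H3K27ac day 3 over day 0, 5 anchors were called in the reported setting, 3 of the 4 tested with anchors of similar width, and 8 with all consensus anchors. The last setting also admits anchors and loops with no listed anchor in 1 of the groups, which were treated as not measured elsewhere. With gene windows, 3 of 4 genes were called under either scaling, JUND (higher) only under TMM and FOSL2 (lower) only under library totals. Of all 6249 features in those fits, 39.6% were called under TMM and 55.3% under library totals. For ARID1A over H3K27ac at day 3, 9 anchors were called, and all 5 of the 5 left to test with anchors of similar width. With gene windows all 5 of the 5 genes tested were called, and 4 of 5 when scaled by library totals. Of all 11048 features in those fits, 63.9% were called under TMM and 69.2% under library totals. The 26 called loops of H3K27ac day 3 over day 0 became 9 with DESeq2, 16 with no filter, 73 with all consensus anchors, and 0 by edgeR at equal depth or with anchors of similar width (21 and 3 at an unadjusted p under 0.05). The 41 called loops of ARID1A over H3K27ac became 63 with library totals, 18 with DESeq2, 10 at equal depth, 4 with anchors of similar width, 76 with all consensus anchors, and 0 by edgeR with no filter (81 at an unadjusted p under 0.05). Leaving out 1 library gave 13 to 15 loops for day 3 over day 0 and 15 to 21 for ARID1A over H3K27ac. Gene windows and edgeR's newer quasi-likelihood method were added after seeing the data. Apart from the gene windows, the share of all anchors or loops called is not given for these alternatives. Their counts therefore compare settings and are no result about the genes.

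Directions reversed for JUND between the days. Counted through the gene window it was at 0.67, and counted through the window with library totals at 0.16. Its gene sum was at 0.051 with no flank, 0.051 scaled by PETs between shared anchors, 1.01 at a deposited value of 0.01 or less, 0.16 without loops inside 1 anchor and 0.16 with shared partners only. Library totals moved the median log2 fold of all anchors by over 0.5 in both comparisons and put FOSL2 at -0.35 (as anchor and as window) and the ATF3 anchor at 212765236 at -0.10. The FOSL1 loop between its own anchors was at 0.029 with anchors of similar width. With deposited values of 0.01 or less, loops with few PETs left turned: 8.003 at FOSL1, 1.39 at FOS, and 7.26, 0.93 and 5.75 at JUND. The cause was not tested.

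With the replicate number as a block (replicate block), the anchor counts stayed at 5 and 9 and the loop counts were 20 and 27. Deviations of libraries with the same number correlated at 0.013 or less. As replicates differed little beyond counting noise, this could not show whether the numbers pair the samples. Depth limits JUN, with at most 4 PETs in a library, and the loops of ARID1A.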
